A study of Homo sapiens with 6 samples.

Results

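The replication-dependent histone genes of the clusters HIST1, HIST2 and HIST3 were followed in slow-cycling and rapid-cycling MDA-MB-231 cells, a human triple-negative breast cancer line. Members were the rows of the count file with the biotype protein_coding and a name starting with HIST1H, HIST2H or HIST3H. This gave 70 of 58735 rows: 6 genes of the linker histone H1, and 17 of H2A, 18 of H2B, 15 of H3 and 14 of H4, the core histones of the nucleosome. Of these, 55 lie in the HIST1 cluster on chromosome 6, and 12 in HIST2 and 3 in HIST3 on chromosome 1.

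The cells, of wild-type genotype, were stained with the red membrane dye PKH26, which is diluted as cells divide, and were grown for 12 days. The brightest 1% by flow cytometry were taken as slow-cycling cells (SCC, 3 biological replicates), and cells with a moderate signal were the rapid-cycling group (RCC, 3 biological replicates). The characteristics of the RCC samples call them low in dye, whereas the protocol text calls them moderate. Both groups are 1 cell line, stained and sorted, and no unstained or unsorted cells are among the samples. The series asks how slow-cycling cells, called dormant in its text, differ in expression from cycling ones, and its title names the transcription factor AP-1.

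Most cell cycle genes make ordinary mRNAs, but the clustered histone genes do not. Their mRNAs have no introns and no poly(A) tail, and they end just after a short stem-loop that the protein SLBP binds. The U7 small nuclear ribonucleoprotein and its cleavage complex cut the transcript. These mRNAs are made and stable mainly during DNA synthesis, under the control of NPAT and cyclin E with CDK2. Some of the genes also give longer, polyadenylated transcripts, a form known from differentiated and resting cells. Replacement histones such as H3.3, H2A.Z and H1.0 come from genes outside these clusters. Their mRNAs have poly(A) tails, and they are made outside of S phase as well.

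The stem-loop is shown because it marks where the tailless mRNA ends, and because the annotation of several members goes on past it. The motif searched was GG, any 2 bases, CTT, any base, T, any base, AG, any 2 bases and CC, on the coding strand in the first 150 bases after the stop codon. It was found in 30 of 31 members with at least 60 annotated bases there (96.8%). It was also found in 7 of 19059 other protein-coding genes (0.0367%), 2 of which were the histone genes H2AFX and HIST4H4. The sequences below are from GENCODE release 29 on GRCh38, read 5′ to 3′ on each gene's strand, with the 16 bases of the stem-loop in capitals and 5 bases on each side. HIST2H2BE lies at chr1:149886183-149886208 on the minus strand, HIST1H2BD at chr6:26158582-26158607 on the plus strand, HIST1H2AC at chr6:26124664-26124689 on the plus strand, HIST1H4H at chr6:26285126-26285151 on the minus strand and HIST1H4I at chr6:27139649-27139674 on the plus strand.
HIST2H2BE: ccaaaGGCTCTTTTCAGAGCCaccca
HIST1H2BD: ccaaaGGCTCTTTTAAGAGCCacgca
HIST1H2AC: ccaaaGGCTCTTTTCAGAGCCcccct
HIST1H4H: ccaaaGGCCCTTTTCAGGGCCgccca
HIST1H4I: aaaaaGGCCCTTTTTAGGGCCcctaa

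Among the 31 members with an annotated stem-loop there were 6 versions of these 16 bases. The version of HIST2H2BE and HIST1H2AC was in 17 members, that of HIST1H2BD in 5, that of HIST1H4H in 4 and that of HIST1H4I in 3. The annotated transcript went on for 1729 bases past the stem-loop in HIST2H2BE, 1114 in HIST1H2AC, 630 in HIST1H4H and 212 in HIST1H4I. In 22 members such an extension was longer than 100 bases, and 12 of the 22 had under 10 counts in all libraries together. By contrast, 35 gene models ended at the stop codon and so held no stem-loop at all, among them those of HIST1H2BK, HIST1H1C and HIST2H2AC. For those 3 the counts come from no annotated base after the stop codon.

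**Figure D1:**
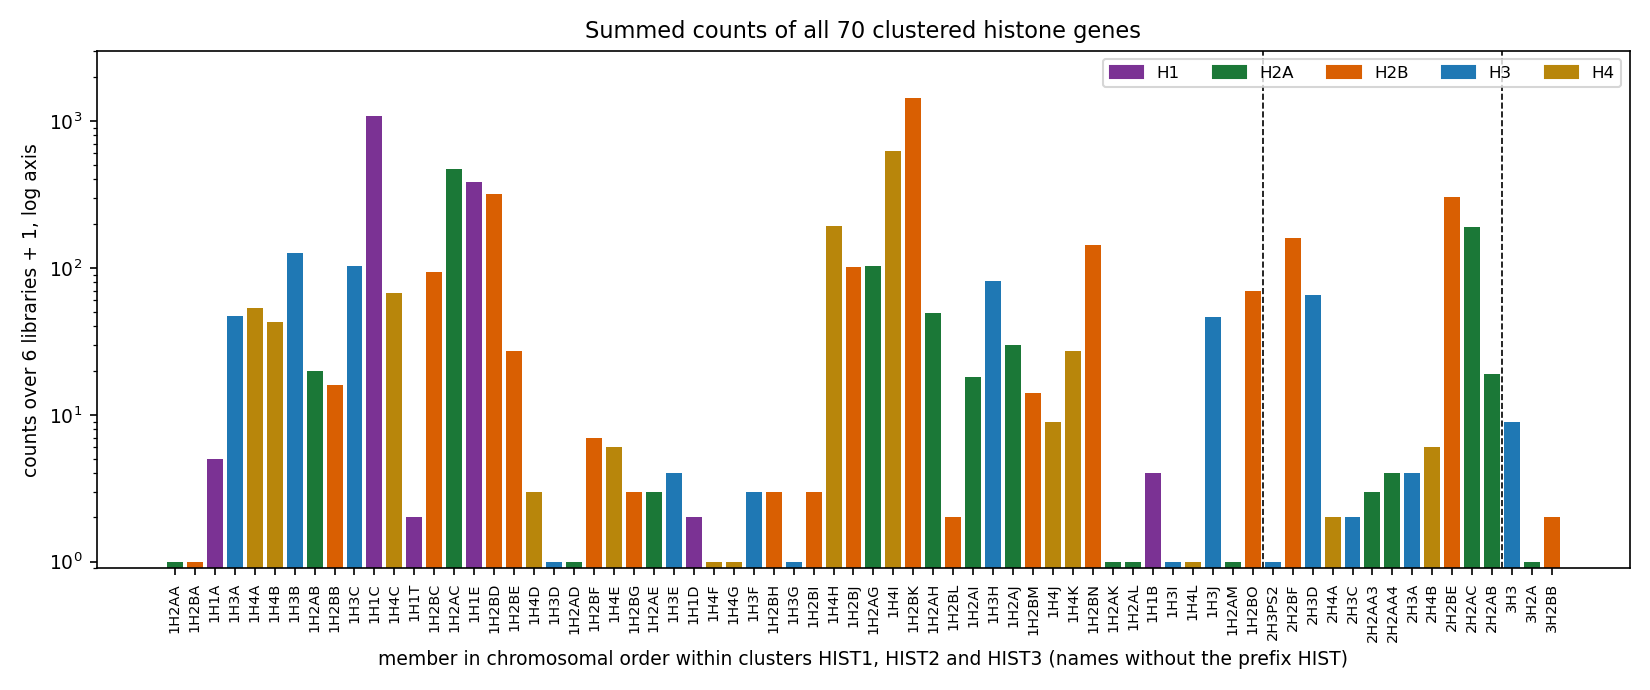
Counts of each of the 70 members summed over the 6 libraries, plus 1, on a log axis, in chromosomal order within each cluster and coloured by histone type; dashed lines part HIST1, HIST2 and HIST3. A few members such as HIST1H2BK (1425 counts) and HIST1H1C (1082 counts) stand far above the rest, and 14 members are at 0 (bars at 1).

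Reads on these genes were rare. The members took 0.00550%, 0.00549% and 0.00535% of all counts in SCC replicates 1 to 3 and 0.00436%, 0.00380% and 0.00578% in RCC replicates 1 to 3. The highest share was in RCC replicate 3 (1021 counts, 95% Wilson interval 0.00544% to 0.00615%, counting error only) and the lowest in RCC replicate 2 (797 counts, 0.00355% to 0.00408%), so the groups overlapped. Library totals ranged from 17655855 to 27831824 counts. HIST1H2BK and HIST1H1C held 38.3% of all member counts, and the top 8 members held 73.17%.

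At the other end, 14 members had no count in any library: HIST1H2AA, HIST1H2BA, HIST1H2AD, HIST1H3D, HIST1H4F, HIST1H4G, HIST1H3G, HIST1H2AK, HIST1H2AL, HIST1H3I, HIST1H4L, HIST1H2AM, HIST2H3PS2 and HIST3H2A. A count of 0 allows up to 3 counts, which is 0.111 CPM (counts scaled to a common library size) in the deepest library and 0.168 CPM in the shallowest. Another 23 members had 1 to 9 counts over all 6 libraries, among them HIST3H3 with 8, and HIST1H1A with 4, HIST1H1B with 3 and HIST1H1D with 1, which are H1 genes of dividing cells. The filter on low counts kept 19 members for the test. The other 51 are described by their counts only. In 18 members over 50% of all 31-base words also occur in another gene. Of these 18, 12 had under 10 counts, as did 37 of all 70 members, and the part of shared sequence in the low counts was not tested. Among the members at 0, HIST1H2AD, HIST1H3D, HIST1H2AK, HIST1H2AL, HIST1H2AM and HIST2H3PS2 overlap exons of another gene. For these the limit above holds only if reads on the overlapping exons were counted for them. How reads that fit several genes were counted is not given in the sources used here.

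Per length, the leading members lay below the most abundant replacement histones and above the least abundant ones. The deposited FPKM (fragments scaled to gene length and library size) of HIST1H2BK averaged 33.5 in SCC and 23.6 in RCC, and that of HIST1H1C 14.8 and 11.1. HIST1H4I (4.03 and 3.32), HIST2H2AC (3.72 and 3.75), HIST1H2BD (3.70 and 1.87) and HIST1H1E (3.65 and 4.20) came next, with HIST1H3B (1.70 and 3.28) the highest H3 gene. Against this, H1F0, which codes for the linker histone H1.0, averaged 237 and 209 FPKM, and H2AFZ, which codes for H2A.Z, 187 and 187. CENPA (18.3 and 18.9) and H2AFJ (9.39 and 8.44) were below HIST1H2BK.

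Across all genes, 15881 were tested with edgeR's quasi-likelihood F test, and 268 (1.69%) were higher and 60 (0.378%) lower in SCC, 2.07% in all, with Benjamini-Hochberg adjustment and a threshold of 0.05. Of the 19 tested members, 1 was called higher, HIST2H2BE, and 0 lower. DESeq2, which gave an adjusted p for 10 members, also called 1 higher and 0 lower, and limma on the deposited FPKM, with 15 members tested, called 0. At an unadjusted p under 0.05, 5 members were higher and 1 lower, against 11.4% of all tested genes higher and 8.27% lower. The median log2 fold change, SCC over RCC, was 0.01 for the 19 members and 0.00 for all tested genes. Members lay farther from 0 in both directions, with a median size of 0.51 against 0.16, and they were also measured less precisely, with a median standard error (SE) of 0.40 against 0.12 at a median level of 1.28 CPM against 19.7 CPM. In whole-cell RNA of sorted cells, a change in the share of cells in S phase and a change in histone mRNA per cell cannot be told apart.

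**Figure D2:**
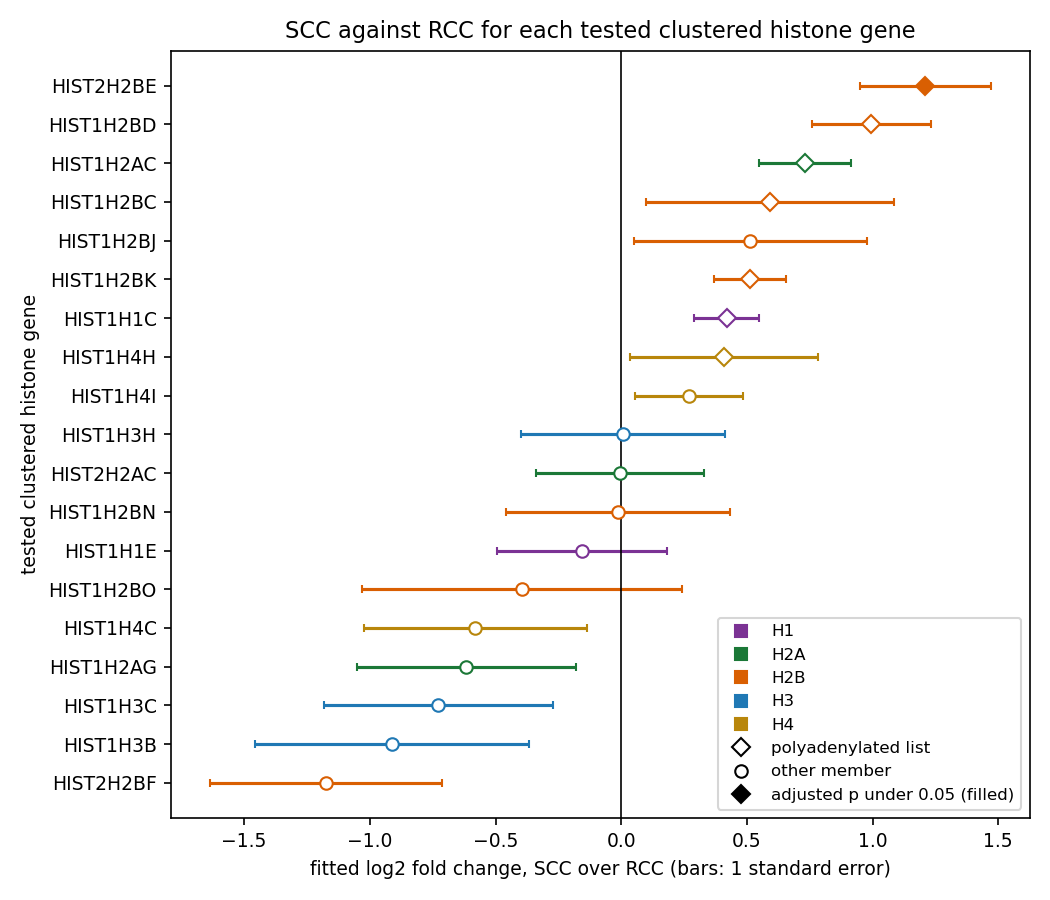
Fitted log2 fold change of each tested member, SCC over RCC, with bars of 1 SE; colour gives the histone type, diamonds mark members on the list of genes known to give polyadenylated transcripts, and the filled symbol marks an adjusted p under 0.05. All 7 diamonds lie above 0, and the other 12 members lie on both sides of it.

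The H2B genes held 40.8% of member counts and the single called member. HIST2H2BE (GRCh38, chr1:149884459-149886652) codes for an H2B protein and is among the clustered genes known for long polyadenylated transcripts. It had 94, 44 and 79 counts in SCC and 32, 32 and 21 in RCC, or 3.49, 2.25 and 3.75 CPM against 1.39, 1.53 and 1.18 CPM. Every SCC library was above every RCC library. It rose with a log2 fold change of 1.21 (SE 0.26, edgeR adjusted p = 0.0432). The call lies near the threshold: leaving out SCC replicate 3 gave an adjusted p of 0.13, leaving out RCC replicate 1, 2 or 3 gave 0.182, 0.126 and 0.17, and thinning to the smallest library gave 0.0623. Limma on the deposited FPKM gave 0.123 to 0.363.

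HIST1H2BD (chr6:26158146-26171349), another H2B gene with a known polyadenylated form, had 75, 69 and 72 counts in SCC against 30, 33 and 36 in RCC. Its CPM of 2.78, 3.53 and 3.42 did not overlap with 1.30, 1.58 and 2.01. Its log2 fold change was 0.99 (SE 0.24) with an edgeR adjusted p of 0.0612, just above the threshold. With the replicate number as a block it was 0.0499.

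HIST1H2BK (chr6:27146418-27146798) was the most counted member. It reached 13.4, 13.8 and 11.4 CPM in SCC and 9.09, 7.50 and 10.5 CPM in RCC. The groups did not overlap, but RCC replicate 3 came within 1 CPM of the lowest SCC library. Its log2 fold change was 0.51 (SE 0.14, edgeR adjusted p = 0.0975). Of its 31-base words, 86.3% also occur in another gene, mostly H2BFS, so its counts are uncertain.

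HIST1H2BC and HIST1H2BJ, both with about 100 counts or fewer, overlapped between groups. HIST1H2BC had 27, 11 and 20 counts in SCC and 11, 5 and 18 in RCC (log2 0.59, SE 0.49, adjusted p = 0.513 by edgeR). HIST1H2BJ had 23, 11 and 27 against 20, 6 and 13 (log2 0.51, SE 0.46, adjusted p = 0.544 by edgeR). The remaining tested H2B genes were at or below 0.

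HIST2H2BF (chr1:149782689-149812373) had the lowest log2 fold change of all tested members. It had 19, 18 and 15 counts in SCC and 38, 15 and 53 in RCC, so that RCC replicate 2 lay among the SCC libraries. Its log2 fold change was -1.17 (SE 0.46), and it was the 1 member lower at an unadjusted p under 0.05 (edgeR adjusted p = 0.201). The log2 fold change was -0.63 without RCC replicate 3. The gene overlaps exons of FCGR1A on the other strand, and the use of strand in counting is not given in the sources used here. HIST1H2BN (log2 -0.01, SE 0.45) and HIST1H2BO (log2 -0.40, SE 0.64) had counts that overlapped between groups, and HIST1H2BN overlaps exons of HIST1H2AL on its own strand and of HIST1H2AK on the other.

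Summed over the 18 H2B members, levels were 24.7, 23.8 and 22.8 CPM in SCC and 16.6, 13.3 and 22.4 CPM in RCC. These sums did not overlap, by a margin of under 1 CPM between SCC replicate 3 and RCC replicate 3. The H2B members outside the polyadenylated list gave 4.08, 3.68 and 3.23 CPM in SCC and 4.30, 2.44 and 7.72 CPM in RCC, which overlapped.

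Among the H2A genes, HIST1H2AC (chr6:26124145-26139116), also known for a polyadenylated form, had 103, 99 and 98 counts in SCC and 63, 55 and 49 in RCC. At 3.82, 5.06 and 4.65 CPM against 2.74, 2.63 and 2.74 CPM the groups did not overlap. Its log2 fold change was 0.73 (SE 0.18, edgeR adjusted p = 0.0729). HIST2H2AC, with 41, 32 and 26 counts in SCC and 26, 46 and 19 in RCC, had a log2 fold change near 0 (-0.005, SE 0.33), and 50.6% of its 31-base words occur in other genes. HIST1H2AG had 17, 12 and 14 counts against 16, 13 and 30 (log2 -0.62, SE 0.44, edgeR adjusted p = 0.441). RCC replicate 3 was far above the other 5 libraries, and without it the value was -0.06. HIST1H2AH, too low to be tested, had 5, 7 and 3 counts in SCC and 9, 9 and 15 in RCC.

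All 17 H2A members together reached 6.83, 8.49 and 7.49 CPM in SCC and 5.65, 6.64 and 6.71 CPM in RCC. HIST1H2AC carries that difference: without it the log2 ratio of the summed levels turned from 0.26 to -0.23.

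Of the H1 genes, HIST1H1C and HIST1H1E, which code for the somatic linker histones H1.2 and H1.4, could be tested. HIST1H1C (chr6:26055787-26056428), a member of the polyadenylated list, had 9.35, 10.1 and 9.15 CPM in SCC and 7.04, 6.50 and 7.89 CPM in RCC. All SCC libraries were above all RCC libraries, by a log2 fold change of 0.42 (SE 0.13, edgeR adjusted p = 0.126). HIST1H1E had 105, 45 and 45 counts in SCC and 50, 51 and 88 in RCC. Here SCC replicate 1 and RCC replicate 3 were high and the other 4 libraries lay between 2.13 and 2.44 CPM. Its log2 fold change of -0.16 (SE 0.34) turned to 0.28 without RCC replicate 3. The summed H1 level was 13.4, 12.4 and 11.3 CPM in SCC and 9.30, 8.94 and 12.9 CPM in RCC, and without HIST1H1C its log2 ratio turned from 0.25 to -0.19.

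The 15 H3 genes held 7.33% of member counts, and 3 were tested. HIST1H3B had 18, 20 and 9 counts in SCC and 21, 12 and 46 in RCC (log2 -0.91, SE 0.54, edgeR adjusted p = 0.364), and without RCC replicate 3 its log2 fold change was -0.10. HIST1H3C had 15, 14 and 12 against 15, 14 and 32 (log2 -0.73, SE 0.46, edgeR adjusted p = 0.385), and without RCC replicate 3 its value was -0.12. HIST1H3H had 18, 15 and 9 against 15, 9 and 14 (log2 0.01, SE 0.40). The H3 sums were 3.60, 3.32 and 2.99 CPM in SCC and 3.70, 2.25 and 6.88 CPM in RCC, and their log2 ratio turned from -0.37 to 0.14 without RCC replicate 3.

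Of the H4 genes, HIST1H4I was the most counted, at 4.34, 4.91 and 6.50 CPM in SCC and 4.78, 4.97 and 3.19 CPM in RCC (log2 0.27, SE 0.22, edgeR adjusted p = 0.495). HIST1H4H, from the polyadenylated list, had 59, 25 and 32 counts against 27, 15 and 35 (log2 0.41, SE 0.38, edgeR adjusted p = 0.553). HIST1H4C had 15, 4 and 9 against 15, 14 and 9 (log2 -0.58, SE 0.44, edgeR adjusted p = 0.474). In each of these the groups overlapped, and so did the H4 sums, at 8.23, 6.75 and 9.15 CPM in SCC and 7.91, 6.98 and 8.17 CPM in RCC. All 70 members summed to 56.8, 54.8 and 53.7 CPM in SCC and 43.1, 38.1 and 57.1 CPM in RCC, with RCC replicate 3 the highest of the 6 libraries.

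**Figure D3:**
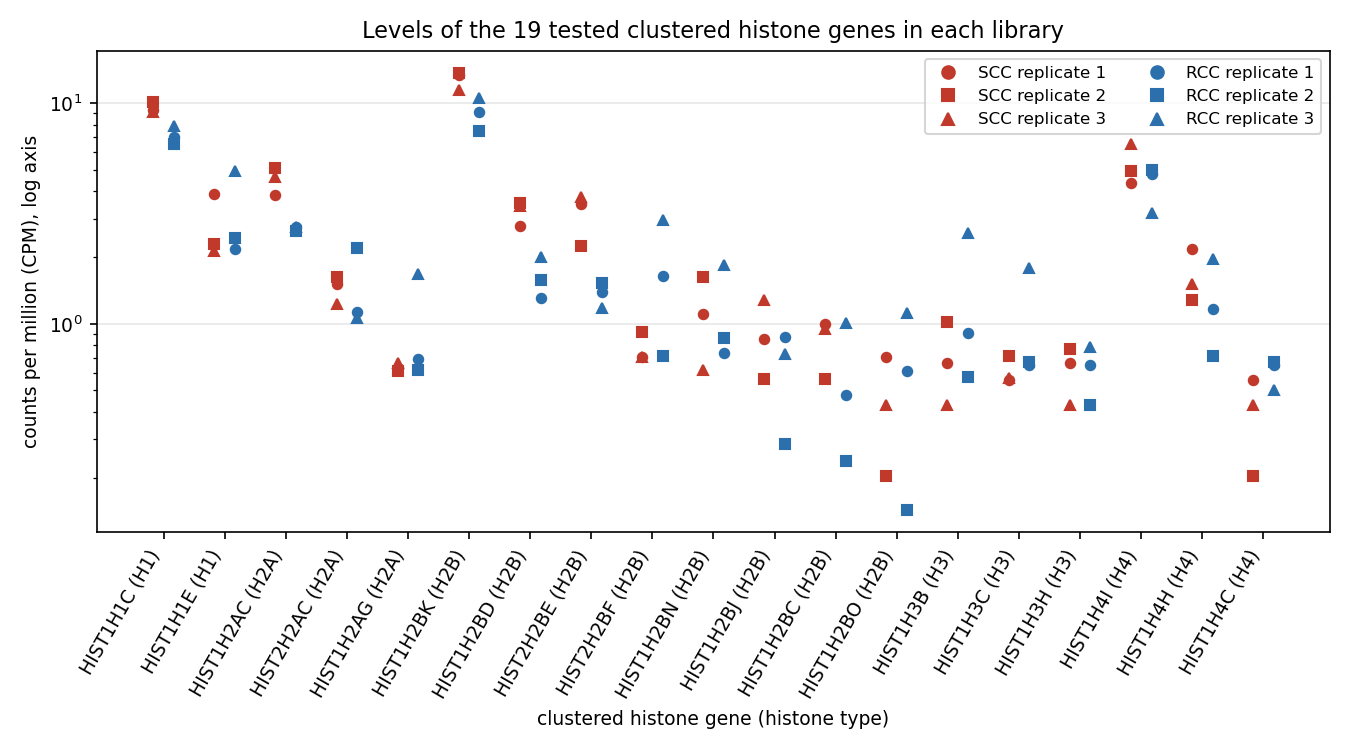
CPM of the 19 tested members in each library on a log axis, grouped by histone type; SCC libraries are red, RCC libraries blue, and circles, squares and triangles are replicates 1, 2 and 3. HIST2H2BE, HIST1H2BD, HIST1H2AC, HIST1H2BK and HIST1H1C show all red points above all blue ones, and RCC replicate 3 is the top point in 8 of the 12 tested members outside the polyadenylated list.

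Across histone types, members were set apart by whether they are known to give polyadenylated transcripts. The list of such genes holds 9 members: HIST1H1C, HIST1H2AC, HIST1H2BC, HIST1H2BD, HIST1H2BK, HIST1H4H, HIST2H2BE, HIST2H2AA3 and HIST2H4A. It was drawn up from general knowledge, with earlier results of these data known, so its direction is a description. HIST2H2AA3 (2 counts) and HIST2H4A (1 count) were too low to be tested. All 7 tested members had log2 fold changes above 0, where 50.5% of all tested genes did, from 0.41 to 1.21 with a median of 0.59. In 5 of the 7 every SCC library was above every RCC library, a separation that 14.4% of all tested genes showed, and the other tested members overlapped, where 13.4% of all tested genes had every RCC library above every SCC library. Of the 12 other tested members, 3 were above 0 and 9 below, with a median of -0.28. A split by annotation gave a less uniform picture. Of the 9 tested members with an annotated extension over 100 bases past the stem-loop, 6 were above 0 and 3 below, with a median of 0.27. HIST2H2BF, HIST1H2AG and HIST1H2BN were the 3 below 0, whereas HIST1H2BK, HIST1H1C and HIST1H2BD are on the list without such an extension. The 10 tested members without one had a median of -0.08, with 4 above 0. The polyadenylation signal AATAAA, searched in the last 40 bases of the annotated transcripts, also parted the tested members differently from the list. It was present in the listed HIST2H2BE, HIST1H2BD, HIST1H2AC and HIST1H4H and absent in the listed HIST1H2BK, HIST1H1C and HIST1H2BC. Among members outside the list, HIST2H2BF, HIST1H2AG, HIST1H2BN, HIST1H3H and HIST1H2BJ had it.

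The sums show both patterns. The 9 listed members added up to 36.1, 36.7 and 34.9 CPM in SCC and 23.2, 20.7 and 27.3 CPM in RCC, a 1.51-fold ratio of the means with no overlap. This log2 ratio of 0.59 stayed between 0.50 and 0.70 with each library left out in turn, and was 0.88 without the highest member of each histone type. The other 61 members added up to 20.7, 18.1 and 18.9 CPM in SCC and 19.9, 17.4 and 29.8 CPM in RCC. There the groups overlapped and RCC replicate 3 stood apart. Without it the log2 ratio of -0.22 became 0.04.

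RCC replicate 3 was the highest library for 8 of the 12 tested members outside the list (66.7%), for 7 of the 14 members with 10 or more counts that were not tested, and for 14.8% of all tested genes. It was the highest library for 1 of the 7 tested members of the list. RNAs without a poly(A) tail varied between libraries as well. RN7SL2, the RNA of the signal recognition particle, had 928 CPM in RCC replicate 3 and 1076 CPM in SCC replicate 1, against 697 and 627 CPM in the other SCC libraries and 554 and 569 CPM in the other RCC libraries. HIST1H1E was also high in RCC replicate 3 and SCC replicate 1. SCC replicate 1 was the highest library for 0 of the 12 tested members outside the list. In the sum of all 61 members outside the list it came next after RCC replicate 3, at 20.7 CPM against 29.8 CPM. The other libraries lay between 17.4 and 19.9 CPM in that sum. Of the 15 RNAs on the list of tailless RNAs 8 were at 0 in every library, among them RN7SK and TERC. Only 3 of the 15 were tested. All 3 had log2 fold changes above 0, and 2 were higher at an unadjusted p under 0.05. By edgeR 1 of the 3 was called higher, where 1.69% of all tested genes were. This was RNU5A-1, a U5 spliceosomal RNA, which rose from 1.13, 0.765 and 0.839 CPM in RCC to 4.56, 5.93 and 5.08 CPM in SCC (log2 2.49, SE 0.23, edgeR adjusted p = 0.000236). Whether poly(A)+ RNA was selected is not given in the labels, and the part of tailless RNA in the histone values was not tested.

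**Figure D4:**
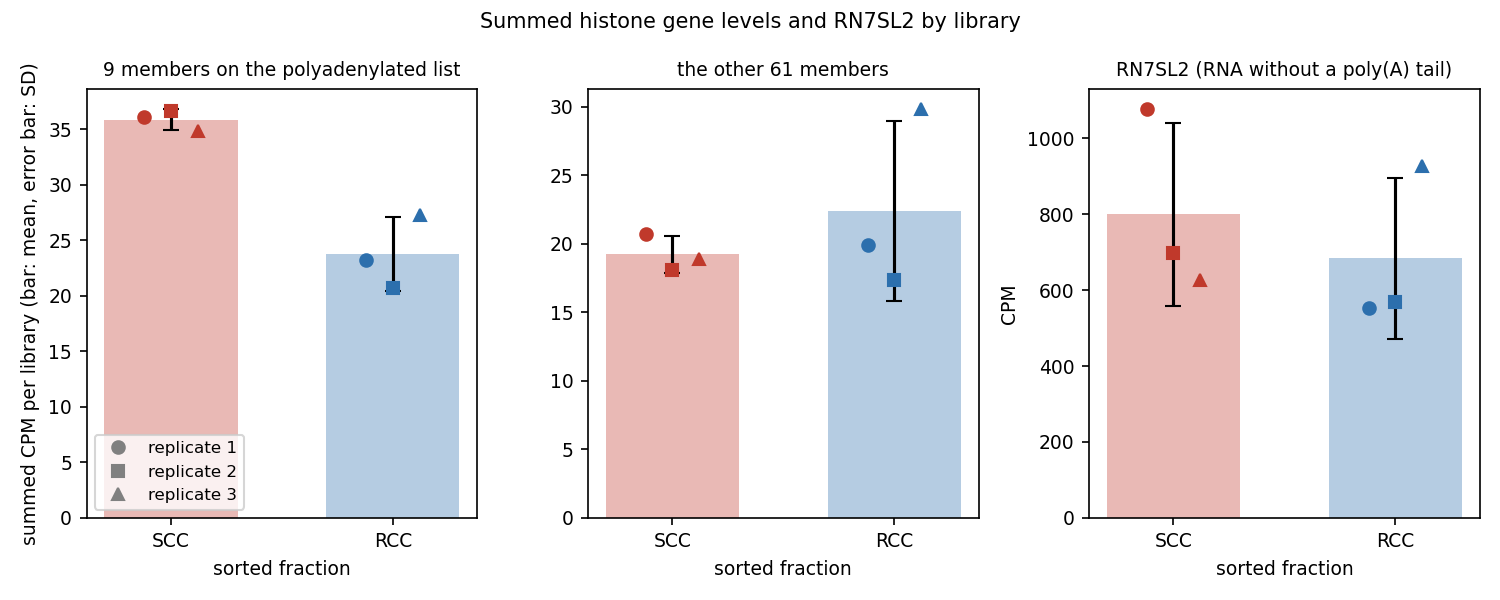
Summed CPM of the 9 members on the polyadenylated list (left) and of the other 61 members (middle), and CPM of RN7SL2 (right), with a bar for the mean of 3 libraries, an error bar for the SD and a point for each replicate. The left sums separate SCC from RCC, whereas RCC replicate 3 stands above the other 5 libraries in the middle and, together with SCC replicate 1, on the right.

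Many H2A and H2B genes lie head to head and share the DNA between their starts. There were 12 head-to-head pairs of members within 1000 bases, 1 of them an H3 gene with an H2B gene (HIST1H3J and HIST1H2BO), and both genes were tested in 3. HIST1H2BO was also paired with HIST1H2AM, 314 bases away, which overlaps the HIST1H3J model on the same strand, so these pairs share 1 stretch of DNA. HIST2H2BE and HIST2H2AC start 323 bases apart and had log2 fold changes of 1.21 and -0.005. HIST1H2BJ and HIST1H2AG, 292 bases apart, had 0.51 and -0.62. HIST1H2BC and HIST1H2AC, 219 bases apart, had 0.59 and 0.73. Differences within pairs were not tested.

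The DNA before HIST2H2BE, which is also the start region of HIST2H2AC, is shown beside that of HIST1H2BD, since these H2B genes had the highest fold changes. Both are the 250 bases before the RefSeq start on GRCh38.p14, chr1:149886683-149886932 on the minus strand and chr6:26157871-26158120 on the plus strand. Capitals mark TATAAA on the coding strand, and CCAAT (or ATTGG) and the octamer ATTTGCAT on either strand.
HIST2H2BE: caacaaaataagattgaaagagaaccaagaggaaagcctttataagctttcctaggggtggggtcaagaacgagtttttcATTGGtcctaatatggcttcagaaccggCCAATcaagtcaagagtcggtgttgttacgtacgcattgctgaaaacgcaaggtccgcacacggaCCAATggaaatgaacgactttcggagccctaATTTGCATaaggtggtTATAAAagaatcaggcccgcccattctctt
HIST1H2BD: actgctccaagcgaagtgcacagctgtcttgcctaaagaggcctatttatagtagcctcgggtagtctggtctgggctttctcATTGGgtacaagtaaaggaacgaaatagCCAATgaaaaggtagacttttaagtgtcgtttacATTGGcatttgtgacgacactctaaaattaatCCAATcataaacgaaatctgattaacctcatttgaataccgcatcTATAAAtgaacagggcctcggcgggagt

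The HIST2H2BE stretch held 1 octamer, 3 CCAAT and 1 TATAAA, and the HIST1H2BD stretch held 4 CCAAT, 1 TATAAA and no octamer. In the RefSeq windows of 250 bases before to 50 after the start, which matched 65 of the 70 members, the octamer was in 14 of 18 H2B genes (77.8%) and 11 of 16 H2A genes (68.8%), against 1.77% of all 35116 windows. CCAAT was in 86.2% of members (all windows 34.6%) and TATAAA in 58.5% (all windows 7.33%). Among H4 genes, CCAAT was in 3 of 12. The H1 box AAACACA, searched on both strands, was in all 6 H1 genes, against 5.64% of all windows. These are matches of letters, and no binding was measured.

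The genes that make and trim histone mRNA were far better covered. Of 23 such genes, all tested, 0 were called by edgeR, 1 (CCNE2) by DESeq2 and 0 by limma, and the median log2 fold change was -0.14. At an unadjusted p under 0.05, 1 was higher and 8 lower, where 11.4% of all tested genes were higher and 8.27% lower. SLBP, which binds the stem-loop, was at 94.5, 99.4 and 98.3 CPM in SCC and 98.0, 93.9 and 98.1 CPM in RCC (log2 0.01, SE 0.07). NPAT, the coactivator of histone genes (log2 -0.14, SE 0.10), and CASP8AP2, the FLASH protein of the histone locus body (log2 -0.19, SE 0.10), were not called. CCNE2, cyclin E2, had the lowest value of the list, with 15.8, 18.6 and 19.6 CPM in SCC and 25.1, 26.3 and 23.1 CPM in RCC. These did not overlap, and the edgeR adjusted p was 0.0544 (log2 -0.47, SE 0.11). Among 18 alternatives it was called lower in 8, and DESeq2 put its adjusted p at 0.0205. LSM11, a U7 particle protein, was next (log2 -0.42, SE 0.11, edgeR adjusted p = 0.0852), while CCNE1 (log2 -0.18, SE 0.14) and CDK2 (log2 0.06, SE 0.08) overlapped between groups.

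Of the 20 tested histone chaperones and chromatin assembly genes, 0 were called by edgeR, DESeq2 or limma, with an unadjusted p under 0.05 for 0 higher and 3 lower genes and a median log2 of -0.05. Of 37 genes of DNA replication, 0 were called by edgeR or limma and 1 by DESeq2 (POLE2, a DNA polymerase subunit, log2 -0.39 in edgeR), with an unadjusted p under 0.05 for 1 higher and 6 lower genes and a median of -0.06. For both lists, the shares of all tested genes at an unadjusted p under 0.05 were 11.4% higher and 8.27% lower.

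Of the 12 tested replacement and unclustered histones, 8 were above 0, where 50.5% of all tested genes were, and the median log2 was 0.09. By edgeR and limma 0 were called and by DESeq2 1 (H2AFX). At an unadjusted p under 0.05 there were 3 higher and 0 lower, against 11.4% and 8.27% of all tested genes. H1FX, which codes for H1.10, had 152, 88.8 and 93.0 CPM in SCC and 62.6, 68.0 and 82.7 CPM in RCC (log2 0.65, SE 0.18, edgeR adjusted p = 0.0976). H2AFX, which codes for H2A.X and has the stem-loop, had 329, 216 and 241 CPM against 186, 202 and 201 CPM (log2 0.42, SE 0.13, edgeR adjusted p = 0.125). In both, SCC replicate 1 was the highest library. With an offset for GC content their log2 fold changes were 0.29 and 0.11.

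H1F0, linked to resting cells, was at 586, 537 and 554 CPM in SCC and 499, 500 and 477 CPM in RCC (log2 0.18, SE 0.06, edgeR adjusted p = 0.155). HIST4H4, a lone H4 gene outside the clusters, had 34, 29 and 24 counts against 12, 10 and 23 (log2 0.79, SE 0.40, edgeR adjusted p = 0.295). H3F3A and H3F3B, which code for H3.3, had log2 fold changes of 0.03 and 0.03, H2AFZ 0.00, H2AFJ 0.16 and CENPA, the centromeric H3, -0.04.

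**Figure D5:**
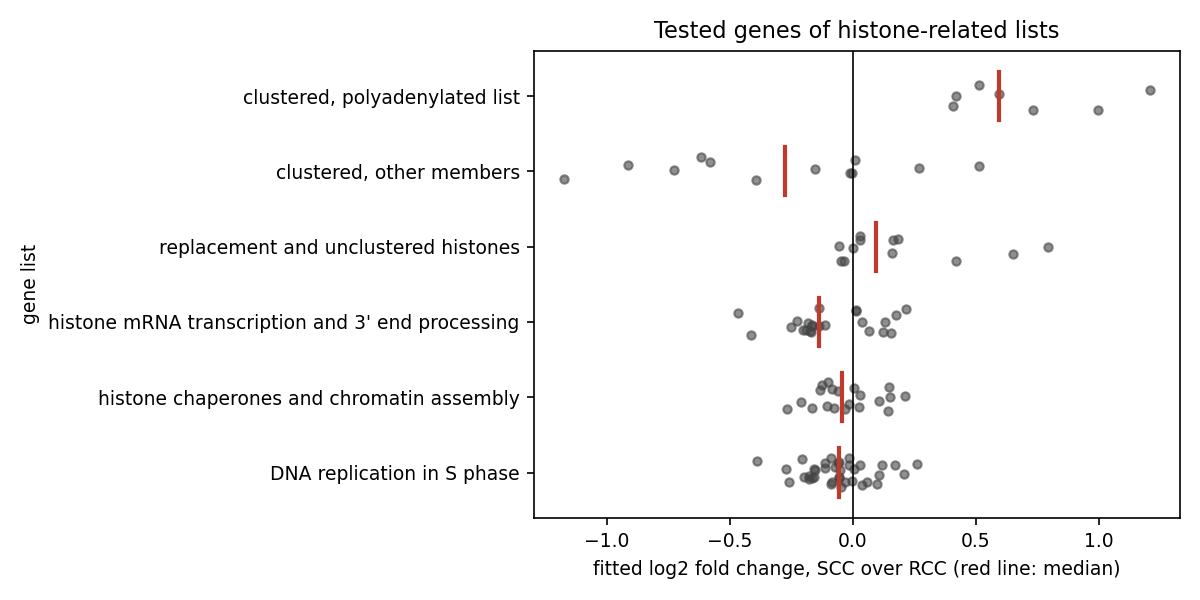
Fitted log2 fold change, SCC over RCC, of every tested gene of 6 histone-related lists, with the median of each as a red line (vertical scatter has no meaning). Medians are 0.59 for the polyadenylated members and -0.28 for the other members, and between -0.14 and 0.09 for the remaining lists.

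Markers of the line were checked against its label. VIM, CD44, EGFR, AXL, CAV1 and SPARC were all detected (means of 28.2 to 795 CPM), while ESR1, PGR and CDH1 were under 0.5 CPM on average. GATA3, which was listed as near 0, was at 8.93 CPM in SCC and 7.68 CPM in RCC. The 6 leukocyte markers together reached 3.56, 0.971 and 1.38 CPM in SCC and 0.869, 0.669 and 1.06 CPM in RCC, highest in SCC replicate 1. CD3E and MS4A1 had at most 2 counts. Only 1 of the 6 passed the filter on low counts and was tested. Its log2 fold change was 1.84, higher at an unadjusted edgeR p under 0.05, where 11.4% of all tested genes were. It was not called. In a chi-square comparison of counts, SCC replicate 1 differed from the other SCC replicates by 24.6 and 18.6 per degree of freedom, and the other replicate pairs by 3.17 to 4.08. Without it, HIST2H2BE, HIST1H2BD, HIST1H2AC and HIST1H2BK were called higher, and 642 of all genes were called higher, against 268 with all libraries.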

How the data were processed

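RNA was measured in 6 libraries of MDA-MB-231 cells, made per the labels' protocols from TRIzol-extracted total RNA with an NEBNext Ultra kit. The authors deposited a table of raw counts and a table of FPKM, with genes as rows. Per the submitters' processing notes, HISAT2 2.0.5 and featureCounts 1.5.0-p3 were used. Their settings, the use of strand, the handling of reads that fit several genes and the genome build are not given in the sources used here. The files' positions matched GENCODE 29 on GRCh38 in 58724 of 58735 rows and in all 70 members.

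The count test was edgeR 4.0.16 (R 4.3.3): filterByExpr by group (minimum count 10), TMM scaling, glmQLFit on group alone, two-sided quasi-likelihood F test, Benjamini-Hochberg adjustment over all tested genes, adjusted p under 0.05 called. The SE is the log2 fold change over the root of F. CPM uses TMM-scaled totals. P-values measure the spread between the biological replicates the labels name. The test was checked on simulated data with known changes. Sums over members are described with no test. Shares have 95% Wilson intervals, and a count of 0 is read as up to 3 counts.

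Stem-loops, gene overlaps and shared words of 31 bases came from GENCODE 29, promoters from RefSeq GRCh38.p14. Members and lists were chosen with earlier results of these data known. Genes were named by a rule: called members and listed genes, per histone type the 2 highest, the smallest p and the extreme fold changes, the polyadenylated list, and 15 fixed regulators and replacement histones. HIST1H2AH, HIST3H3, LSM11, POLE2, RN7SL2 and the H1 genes of low count were named after their values were seen. Alternatives were DESeq2 1.42.0, other scalings and filters, limma 3.58.1 with trend on log2(FPKM + 1) or log2(FPKM + 0.1), thinning, a GC offset (lowess, span 0.3), a replicate block, and leaving out every library in turn.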

Additional observations from a re-analysis of the deposited data

How the results depend on the processing

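The labels state no pairing of the samples. Deviations of same-numbered libraries correlated at -0.01, 0.02 and -0.08, which with 3 libraries per group does not settle whether they were prepared together. With the replicate block 2 members were called higher (HIST1H2BD and HIST2H2BE), with the block and the GC offset 3, and with the GC offset alone 3. Over all genes these settings called 350, 639 and 522 higher, against 268. Testing every gene with at least 1 count, 56 members among them, called 4 members higher and 1 lower (HIST2H2BF), and over all genes 995 higher and 315 lower, against 268 and 60. Thinning to the smallest library called 0 higher, and so did limma in each of its 3 settings. With each library left out, 0 to 4 were called higher and 0 lower; the smaller arm then shares the spread estimated over all remaining libraries. Without the highest member of each type, log2 ratios of summed levels were -0.191 for H1, -0.233 for H2A, -0.27 for H4 and 0.882 for the polyadenylated list. Summed FPKM gave 0.058 for H2A and -0.28 for H4, and members without an annotated extension gave -0.101 for H2A and -0.927 for H4. The causes were not tested.

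Log2 fold changes near 0 changed sign as follows. HIST2H2AC was at 0.000199 with every gene of at least 1 count, 0.0623 and 0.04 in limma (0.04 also without the filter) and 0.0535 with the replicate block, HIST1H2BN at 0.0934 with the GC offset, 0.0127 with the block and 0.119 with both. HIST1H3H was at -0.022 on library totals, -0.00278 in limma without the filter and -0.00108 with block and offset. SLBP was at -0.016 with the GC offset, -0.0152 on library totals, -0.0169 with block and offset and -0.0102 when thinned, and H2AFZ at 0.005 with every gene of at least 1 count. With each library left out in turn, values ranged from -0.185 to 0.407 for HIST2H2AC, -0.373 to 0.472 for HIST1H2BN, -0.205 to 0.196 for HIST1H3H, -0.496 to 0.277 for HIST1H1E, -0.925 to 0.253 for HIST1H2BO, -0.0179 to 0.0334 for SLBP, -0.0605 to 0.0478 for H2AFZ, -0.0163 to 0.0656 for H3F3A, -0.000108 to 0.0396 for H3F3B and -0.114 to 0.0369 for CENPA. HIST2H2BE kept a log2 fold change of at least 0.57 in all 18 alternatives. Depth limits these genes: 37 of 70 members had under 10 counts.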

Other observations

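Other genes with histone cluster names fell outside the set because their biotype is a pseudogene. HIST2H2BC, a transcribed pseudogene of the HIST2 cluster, had 67, 52 and 64 counts in SCC and 58, 32 and 41 in RCC (log2 0.36, SE 0.24, edgeR adjusted p = 0.414). HIST2H2BC was thus counted more than HIST2H2BE (314 counts against 302). HIST2H2BD had 24, 9 and 8 counts against 10, 25 and 5, and HIST2H2BA 10, 9 and 15 against 19, 8 and 5. HIST2H3DP1, an H3 pseudogene, had 18, 6 and 3 counts against 11, 4 and 14 (log2 -0.28, SE 0.62). In each of these 4 genes the groups overlapped.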
